A study of Mus musculus with 2 samples.

Results

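The genes described here are 8 members of the myeloid growth factor system. They were taken by gene symbol, which matched 1 row for each of the 8 names among the 31053 genes of the count matrices. They comprise 6 receptor genes (Csf1r, Csf2ra, Csf2rb, Csf2rb2, Csf3r and Flt3) and 2 ligand genes (Csf1 and Csf2). The cells came from colons of chimeric mice in which CD45.1 recipients carried CD45.2 bone marrow. The donor marrow was either IL-10R KO, lacking the IL-10 receptor through loss of Il10rb, or IL-10R/CerS2 DKO, lacking ceramide synthase 2 as well, so both genotypes share the receptor deletion and no IL-10R-sufficient library was analysed here. Collagenase-dissociated cells were sorted on CD45, CD11b, CD11c and CD64, a gate designed by the study to keep out neutrophils and lymphocytes, and captured on the 10x Chromium. Recipient tissue outside the blood lineage keeps its own genes in such mice, and the number of animals behind each library is not given in the sources used here.

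Macrophage colony-stimulating factor, encoded by Csf1, signals through the receptor tyrosine kinase encoded by Csf1r and maintains monocytes and macrophages, including those of the gut wall. Granulocyte-macrophage colony-stimulating factor, encoded by Csf2, binds a ligand-specific alpha chain (Csf2ra) paired with a shared beta chain (Csf2rb), which signals through JAK2 and STAT5. Csf2rb2 encodes the mouse beta chain that pairs with the IL-3 receptor alpha chain, Csf3r the receptor for granulocyte colony-stimulating factor on neutrophils, and Flt3 the receptor tyrosine kinase that drives dendritic cell development.

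There was 1 library per genotype, so no difference between genotypes has a replicate check and none was tested, and library and genotype cannot be told apart. The KO library held 2584 barcodes with 12549471 UMIs (unique molecular identifiers, each standing for 1 captured transcript) and the DKO library 742 barcodes with 3414944 UMIs, of which 2443 and 730 cells were kept. Cers2, the targeted gene, had 552 UMIs in the kept KO cells and 2 in the kept DKO cells. The libraries shared 1 cell barcode. Every level below is a class's summed UMIs per 1000000 UMIs of that class (CPM), and every interval is a 95% interval that covers counting error only. Il10rb, deleted in both genotypes, was still at 5.96 CPM in KO and 4.12 in DKO, and since 3′ tags can lie outside the deleted part, these levels do not check the deletion.

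Clustering without the 8 genes gave classes named from marker lists. In KO and DKO, respectively, there were 533 and 109 monocyte-like cells, 801 and 205 macrophage-like cells, 109 and 53 dendritic cell-like cells and 161 and 48 neutrophil-like cells. The lymphoid classes held 148 and 46 T cell-like cells, 229 and 166 B cell-like cells, and 142 and 67 cells of a lymphocyte cluster led by Xcl1 and Nkg7 that was given no cell type name. An unnamed cluster led by Cxcl3, Arg1 and Nos2 held 179 KO cells but 2 DKO cells, so its levels are given for KO alone, and an unnamed low-UMI cluster held 141 and 34 cells. The label of both samples is colon macrophage, and macrophage-like cells made up 32.8% of the kept KO cells.

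Csf1r, a gene of the + strand at chr18:61100598-61132149 in GRCm38, was spread over the monocyte and macrophage lineage. Macrophage-like cells held 2056 Csf1r UMIs in KO, a level of 420 CPM (402–438), and 420 UMIs in DKO, a level of 344 CPM (312–379). Monocyte-like cells were at 342 CPM (320–366) in KO and 346 (298–400) in DKO, and the Arg1 Nos2 cluster was at 360 CPM (327–396) in KO. These 3 groups held nearly all of the Csf1r message: in KO, 58.1% of its UMIs lay in macrophage-like, 25% in monocyte-like and 12.2% in Arg1 Nos2 cells.

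In KO the Csf1r level was higher in macrophage-like than in monocyte-like cells, with a log2 ratio of 0.29 (0.18–0.41), whereas in DKO the log2 ratio was -0.01 (-0.26–0.25). The difference between those ratios was not tested. Monocyte-like and Arg1 Nos2 cells of the KO library had overlapping intervals, and so had macrophage-like and monocyte-like cells of the DKO library. At a finer clustering, the highest Csf1r levels of named cells lay in an Apoe Ms4a7 macrophage-like sub-cluster, at 557 CPM (512–606) in KO and 388 (318–470) in DKO, and in nonclassical monocyte-like cells marked by Ace and Cd300e. The latter were at 529 CPM (416–662) in 44 KO cells and 542 CPM (392–731) in 23 DKO cells. Classical monocyte-like cells marked by Vcan and Ly6c2 were lower, at 308 CPM in both libraries.

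Other classes held far less Csf1r. Dendritic cell-like cells were at 36.9 CPM (25.8–51.1) in KO and 57.2 (39.1–80.8) in DKO, which lay below macrophage-like cells by log2 ratios of -3.49 and -2.57. The dendritic cell-like cells with a Csf1r UMI also carried more of the 12 macrophage markers, which summed to 2339 CPM against 370 CPM in those without one in KO, and to 877 against 522 CPM in DKO. Neutrophil-like cells were at 97.2 CPM (65.1–140) in KO and 119 (56.8–218) in DKO. There the macrophage markers summed to 368 CPM with and 332 CPM without a Csf1r UMI in KO, and to 192 and 320 CPM in DKO. The neutrophil markers summed to 51007 CPM with and 85038 CPM without one in KO, but to 153294 and 118639 CPM in DKO. The dendritic cell markers summed to 315 and 49.7 CPM in KO, from 18 and 12 UMIs, and to 64.1 and 72.7 CPM in DKO.

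Some receptor UMIs came from cells that should lack these genes. In KO, 9 of 148 T cell-like cells (6.08%) held 21 Csf1r UMIs. Their median depth was 6419 UMIs against 3559 in the other T cell-like cells, and their macrophage markers summed to 567 CPM against 116 CPM. No Csf1r UMI was found in the 46 DKO T cell-like cells, for which the upper Clopper-Pearson limit of the share of cells with a UMI is 7.71%, nor in Xcl1 Nkg7 lymphocytes of either library. The share of cells with a Csf1r UMI was 80.5% in KO macrophage-like cells, with a median depth of 6019 UMIs, while the T cell-like cells had a median depth of 3640 UMIs. After each cell was thinned to 1000 UMIs, which left out 16 and 3 shallower cells, it was 33% against 1.38%.

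**Figure D1:**
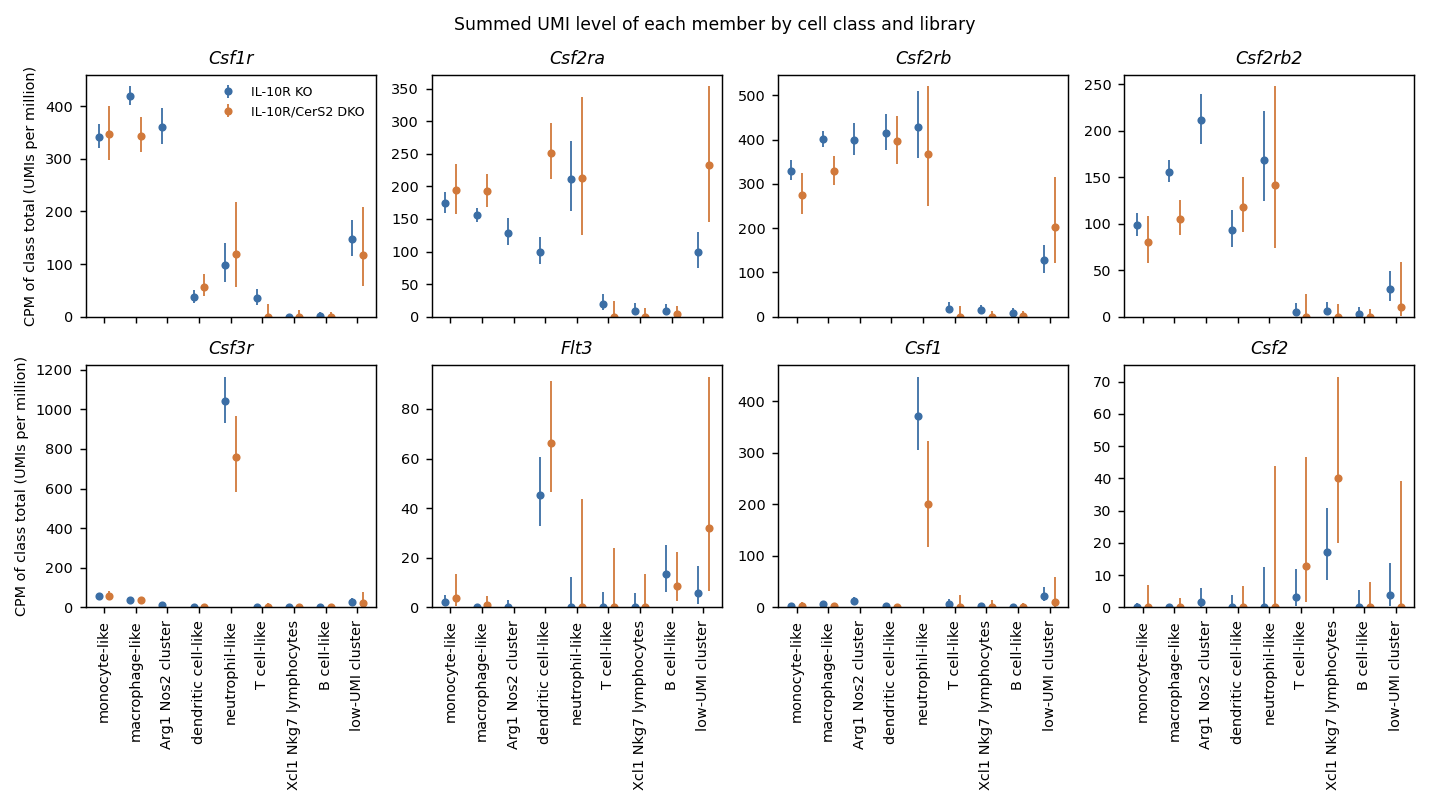
Levels of the 8 genes by class and library, as summed UMIs per 1000000 UMIs of the class (CPM), with 95% intervals for counting error. The KO Csf3r level of 1042 CPM in neutrophil-like cells stands far above its 58.8 CPM in monocyte-like cells, whereas Csf2rb lies between 330 and 429 CPM in all of the KO myeloid classes. The 2 DKO cells of the Arg1 Nos2 cluster are not drawn.

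The beta chain genes need care, since Csf2rb (chr15:78325752-78353847, + strand) and Csf2rb2 (chr15:78282507-78305721, - strand) are neighbouring near-identical copies. Their coding sequences have 2691 and 2637 bases, and 2505 of 2631 aligned bases (95.2%) are identical. The first 120 coding bases of each, from GENCODE M21 transcripts on GRCm38, are shown because they let a reader see how alike the copies are; capitals mark the 4 bases that differ.

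Csf2rb: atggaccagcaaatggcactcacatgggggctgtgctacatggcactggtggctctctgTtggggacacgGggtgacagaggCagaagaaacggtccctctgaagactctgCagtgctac
Csf2rb2: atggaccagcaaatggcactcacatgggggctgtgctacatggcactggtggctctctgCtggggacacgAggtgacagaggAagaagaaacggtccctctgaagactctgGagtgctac

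The 3′ ends, where this assay reads, are less alike. Over the last 500 bases of the transcripts, 464 bases aligned and 86.2% of them were identical, and no stretch of 50 bases was shared. Counts of the 2 genes could still be split by the counting where reads fall further upstream, so each is given on its own and with that limit.

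Csf2rb, the shared beta chain for GM-CSF, IL-3 and IL-5, had similar levels across the myeloid classes. In KO it was at 330 CPM (309–353) in monocyte-like, 401 CPM (383–419) in macrophage-like, 416 CPM (377–459) in dendritic cell-like and 429 CPM (358–510) in neutrophil-like cells. The DKO levels in the same order were 275 (233–324), 330 (298–363), 397 (346–453) and 367 CPM (250–521). In KO, neighbours in the order of levels among neutrophil-like, dendritic cell-like, macrophage-like and Arg1 Nos2 cells (400 CPM) did not differ beyond counting error, and monocyte-like cells lay below them. KO B cell-like cells, with 8.88 CPM, and T cell-like cells, with 18.2 CPM, gave the low levels of lymphocytes.

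Csf2rb2 had a different distribution from Csf2rb, with its highest KO level in the Arg1 Nos2 cluster at 211 CPM (186–239). Macrophage-like cells were at 156 CPM (145–168) and monocyte-like cells at 98.2 CPM (86.5–111) in KO. The Arg1 Nos2 cluster was thus 2.15-fold above monocyte-like cells, a log2 ratio of 1.10 (0.85–1.36), and 0.43 (0.22–0.64) above macrophage-like cells on the log2 scale. The Csf2rb level of that cluster against macrophage-like cells had a log2 ratio of 0.00 (-0.15–0.14). Neutrophil-like cells held 168 CPM (124–221) and dendritic cell-like cells 93.3 CPM (75.1–115) of Csf2rb2 in KO. The neutrophil-like level did not differ from that of the Arg1 Nos2 cluster beyond counting error. At the finer clustering, a sub-cluster led by Cfb and Spint1 was at 190 CPM of Csf2rb2 in KO. The DKO levels were 80 CPM (57.9–108) in monocyte-like, 105 CPM (87.5–125) in macrophage-like, 118 CPM (91.3–150) in dendritic cell-like and 142 CPM (73.5–248) in neutrophil-like cells.

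Csf2ra (chr19:61223957-61228429, - strand), the chain that gives the receptor its specificity for GM-CSF, was found in each myeloid class. In KO it was highest in neutrophil-like cells at 211 CPM (162–270), followed by monocyte-like cells at 175 CPM (159–192), macrophage-like cells at 156 CPM (145–167) and dendritic cell-like cells at 100 CPM (81.5–122). In DKO the order was different, with dendritic cell-like cells at 252 CPM (212–297), neutrophil-like cells at 213 CPM (126–337), monocyte-like cells at 194 CPM (158–234) and macrophage-like cells at 193 CPM (169–219). Dendritic cell-like cells therefore lay below macrophage-like cells in KO, by a log2 ratio of -0.63 (-0.95 to -0.33), and above them in DKO, by 0.39 (0.08–0.70).

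Both chains of the GM-CSF receptor were often found in the same cell. UMIs of Csf2ra and of Csf2rb were seen together in 45.7% of KO and 37.1% of DKO macrophage-like cells, in 37.1% and 33% of monocyte-like cells and in 46.8% and 71.7% of dendritic cell-like cells. In macrophage-like cells with and without a Csf2ra UMI, Csf2rb was seen in 83.4% and 62.4% in KO and in 65% and 51.1% in DKO. In monocyte-like cells these shares were 72% and 64.7% in KO and 58.1% and 57.4% in DKO. In dendritic cell-like cells they were 87.9% and 72.5% in KO and 88.4% and 100% in DKO. Cells in which Csf2ra was seen were also deeper, with a median of 6828 UMIs against 4862 in the other KO macrophage-like cells, and the part of depth in this overlap was not tested.

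Csf3r (chr4:126024550-126044440, + strand) marked neutrophil-like cells. It had 311 UMIs in 126 of the 161 KO cells (78.3%), a level of 1042 CPM (930–1165), and 64 UMIs in 33 of the 48 DKO cells (68.8%), a level of 758 CPM (584–969). Monocyte-like cells followed at 58.8 CPM (49.8–68.9) in KO and 57.7 (39.2–81.9) in DKO, and macrophage-like cells at 35.5 CPM (30.4–41.2) and 35.3 CPM (25.5–47.5). The neutrophil-like level was 17.7-fold the monocyte-like level in KO, a log2 ratio of 4.15 (3.86–4.44), and 13-fold in DKO, a log2 ratio of 3.70 (3.08–4.38).

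Neutrophil-like cells, with median depths of 1598 and 1550 UMIs, gave 46.3% of all Csf3r UMIs in KO and 45.7% in DKO. Macrophage-like cells gave 25.9% and 30.7%, and monocyte-like cells 22.7% and 22.1%. In monocyte-like cells with and without a Csf3r UMI, the 10 neutrophil markers summed to 225 against 208 CPM in KO and to 101 against 90.5 CPM in DKO. In T cell-like cells 0.676% of KO cells held a Csf3r UMI, none was found in B cell-like cells of either library, and dendritic cell-like cells were at 3.07 CPM in KO and 0 in DKO.

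Promoter sequence is shown for Csf3r, whose level in neutrophil-like cells was far above that in each other class, and for Csf2ra, the receptor past 2-fold between the libraries in dendritic cell-like cells. The windows are the 250 bases before the RefSeq start on GRCm38.p6, at chr4:126024409-126024658 on the + strand for Csf3r and chr19:61228419-61228668 on the - strand for Csf2ra. Capitals mark GAGGAAG, a core bound by Ets family factors such as PU.1 (Spi1), which was searched on both strands and was chosen after seeing the data.

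Csf3r: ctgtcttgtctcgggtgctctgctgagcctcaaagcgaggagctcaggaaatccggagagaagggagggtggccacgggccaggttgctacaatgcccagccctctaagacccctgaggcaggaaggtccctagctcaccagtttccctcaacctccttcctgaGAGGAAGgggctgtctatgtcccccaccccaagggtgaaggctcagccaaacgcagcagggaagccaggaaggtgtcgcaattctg
Csf2ra: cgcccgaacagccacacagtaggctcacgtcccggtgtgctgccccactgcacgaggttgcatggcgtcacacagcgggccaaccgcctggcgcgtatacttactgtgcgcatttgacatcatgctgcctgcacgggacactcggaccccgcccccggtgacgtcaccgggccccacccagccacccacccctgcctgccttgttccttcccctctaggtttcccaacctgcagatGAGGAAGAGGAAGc

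The Csf3r window held 1 match and the Csf2ra window 2 matches that overlap by 1 base. The Csf2rb2 window held 1 match on the other strand, and those of Csf1, Csf2 and Flt3 held none, while the promoters of Csf1r and Csf2rb were not searched here. Of 32851 promoters of the same length, 10.6% held at least 1 match and 0.95% at least 2. Both printed windows overlap the gene spans given for these genes, which begin further upstream than the RefSeq starts. The Csf3r match lies within its gene span, and the Csf2ra matches reach into theirs. A match is a description of these letters only. Spi1 itself, the gene of PU.1, was at 861 and 1126 CPM in neutrophil-like, 588 and 530 CPM in monocyte-like and 474 and 498 CPM in macrophage-like cells of KO and DKO.

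Flt3 (chr5:147330741-147400489, - strand) was found mainly in dendritic cell-like cells. There it had 44 UMIs in 32 of 109 KO cells (29.4%), a level of 45 CPM (32.8–60.5), and 37 UMIs in 20 of 53 DKO cells (37.7%), a level of 66 CPM (46.6–91.2). These cells held 71% of all Flt3 UMIs in KO and 78.7% in DKO. No Flt3 UMI was found in the 801 KO macrophage-like cells, and the exact interval of the log2 ratio of dendritic cell-like over macrophage-like cells began at 5.84. It was also not found in neutrophil-like, T cell-like or Xcl1 Nkg7 cells of either library.

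Among named classes, B cell-like cells came next, with 9 Flt3 UMIs at 13.3 CPM (6.09–25.3) in KO and 4 UMIs at 8.66 CPM in DKO, where the unnamed low-UMI cluster was at 31.8 CPM (6.57–93) from 3 UMIs in 1 cell. Dendritic cell-like cells lay above them by a log2 ratio of 1.70 (0.71–2.98) in KO and 2.78 (1.46–4.88) in DKO. Within the dendritic cell-like class, the finer clusters split into Cd209a cells, at 41.5 CPM in KO and 72.6 in DKO, and cells marked by Il12b, Fscn1 and Ccl22, at 72.9 CPM in 15 KO cells and 30.6 CPM in 9 DKO cells. A Csf1r UMI was present in 4 of the 32 KO and 8 of the 20 DKO dendritic cell-like cells that held Flt3.

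**Figure D2:**
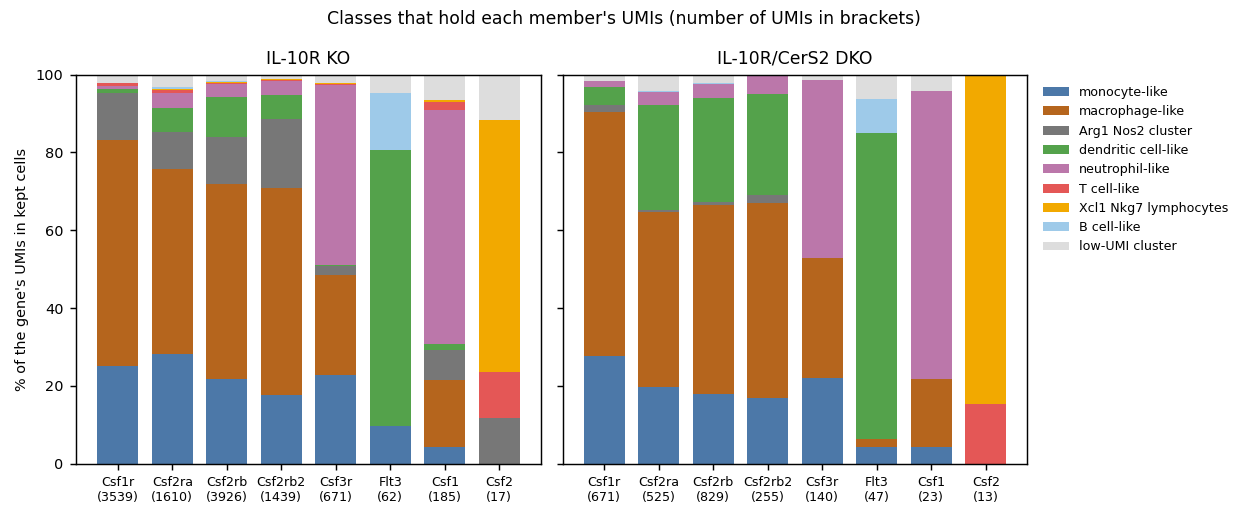
Share of each gene's UMIs that each class held, in percent, for each library. Flt3 lies mostly in dendritic cell-like cells, with 71% in KO and 78.7% in DKO, Csf1 mostly in neutrophil-like cells, and Csf1r mostly in macrophage-like cells, with 58.1% and 62.6%.

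Turning to the ligands, Csf1 (chr3:107741048-107760469, - strand) was found mainly in neutrophil-like cells and hardly in lymphocytes. Neutrophil-like cells had 111 UMIs in 50 of 161 KO cells (31.1%), a level of 372 CPM (306–448), and 17 UMIs in 7 of 48 DKO cells (14.6%), a level of 201 CPM (117–323). They gave 60% (52.6–67.1) of all 185 Csf1 UMIs in KO and 73.9% (51.6–89.8) of all 23 in DKO. These are shares among captured cells, after a sort on CD45 designed to keep out neutrophils and lymphocytes. They do not give the sources of Csf1 in the whole colon. The macrophage-like level was 6.53 CPM in KO and 3.28 in DKO, so that the neutrophil-like level was 56.3-fold higher in KO, a log2 ratio of 5.82 (5.25–6.45).

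All lymphoid cells together held 5 Csf1 UMIs in 519 KO cells, a level of 2.61 CPM, and 0 in 279 DKO cells. No Csf1 UMI was seen in B cell-like cells, whose median depths of 2430 and 2516 UMIs exceed those of neutrophil-like cells. The neutrophil-like cells with Csf1 carried less of the neutrophil marker list than those without it, with sums of 53364 against 88833 CPM in KO and 38198 against 138417 CPM in DKO. Their macrophage markers summed to 484 against 279 CPM in KO and 355 against 287 CPM in DKO. Of the cells with Csf1, 39 of 50 in KO and 3 of 7 in DKO also held Csf3r, while 4 of 50 and 1 of 7 held Csf1r.

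Csf2 (chr11:54247271-54249667, - strand) was rare, with 17 UMIs from 8 cells of the KO library and 13 from 3 cells of the DKO library. The Xcl1 Nkg7 lymphocytes held 11 of these UMIs in 4 KO cells, at 17.3 CPM (8.61–30.9), and 11 in 1 DKO cell, at 40 CPM (19.9–71.5). T cell-like cells held 2 UMIs in 2 cells of each library. No Csf2 UMI was found in B cell-like cells of either library, and the few KO UMIs outside lymphoid classes lay in the Arg1 Nos2 and low-UMI clusters, with 2 each.

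The KO lymphoid cells with Csf2 were set beside the other 513 by the genes they held. Of the genes listed for this purpose, Cd3e, a chain of the T cell receptor complex, was seen in 4 of the 6 cells with Csf2 and in 38.2% of the others. Il7r, the IL-7 receptor, was seen in 3 and in 30% of the others. The type 1 genes Ifng and Tbx21 were seen in 2 each and in 8.97% and 5.26% of the others, and Gata3, a factor of type 2 and other lymphocytes, in 2 and in 7.99% of the others. None of the 6 held Il17a, Il22, Il13 or Ncr1, which the others held in 6.43%, 1.95%, 0% and 0.78%. Among genes added after their values were seen, Nkg7, a cytotoxic granule protein, and Cd3d were present in all 6 and in 35.7% and 47.4% of the others, and Xcl1, a chemokine of innate-like lymphocytes, and Trac were present in 4 each and in 10.1% and 38% of the others. In the 3 DKO cells with Csf2, Il7r was found in 2, Cd3e, Gata3, Ncr1, Nkg7, Xcl1 and Trac in 1 each, and Cd3d, Ifng, Tbx21, Il17a, Il22 and Il13 in 0. Among the other 276 DKO cells, 31.9% held Cd3d, 22.8% Nkg7 and 21.4% Il7r. The other 513 KO cells included 229 B cell-like cells, while 4 of the 6 cells with Csf2 lay in the Xcl1 Nkg7 cluster. Among the other 138 KO cells of that cluster, 91.3% held Nkg7, 88.4% Cd3d and 36.2% Xcl1, each found in all 4. Cd3e was seen in 2 of the 4 and in 74.6% of those 138 cells, and Il7r in 1 and in 44.9%. Ifng and Tbx21 were each seen in 1 of the 4, and in 11.6% and 13% of those 138 cells. Gata3 was seen in 2 and in 15.9%, and Trac in 3 and in 69.6%. These counts are too small to set an order among lymphocyte types.

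For DKO against KO, a ratio was formed where a class held at least 20 UMIs of a gene over both libraries, which gave 22 ratios for the 8 genes over the 4 named myeloid classes. Of these, 1 passed 2-fold and 8 had an interval that left out 0 on the log2 scale, while over all genes in these classes 6.89% to 16.0% passed 2-fold and 14.8% to 21.3% had such an interval. The 1 past 2-fold was Csf2ra in dendritic cell-like cells. The intervals cover counting error in 2 libraries and say nothing of the spread between mice.

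Csf2ra rose in DKO dendritic cell-like cells. It had 98 UMIs in 58 of 109 KO cells and 141 UMIs in 43 of 53 DKO cells, so 100 CPM against 252 CPM, a log2 ratio of 1.33 (0.95–1.71) or 2.51-fold. Among the 5371 genes with at least 20 UMIs in this class, 10.4% passed 2-fold, 4.21% upward and 6.18% downward, 19.7% had an interval that left out 0, and the median log2 ratio was -0.06. The remaining members in this class did not pass, with log2 ratios of 0.64 (-0.10–1.36) for Csf1r, 0.56 (-0.12–1.22) for Flt3, 0.34 (-0.14–0.81) for Csf2rb2 and -0.07 (-0.31–0.17) for Csf2rb.

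The Csf2ra difference did not rest on 1 cell, but DKO cells with several UMIs held much of it. Exactly 3 Csf2ra UMIs were seen in 3 DKO and 6 KO cells, and exactly 4 in 7 DKO and 0 KO cells. Exactly 5 were seen in 3 DKO and 2 KO cells, and exactly 6 in 3 and 1. Exactly 7 were seen in 1 cell of each library, and exactly 8 in 3 DKO and 0 KO cells. Cells with no Csf2ra UMI made up 46.8% of the KO and 18.9% of the DKO dendritic cell-like cells, and the most in any cell was 7 in KO and 10 in DKO. The share of cells with a UMI was 53.2% in KO and 81.1% in DKO, and after thinning to 1000 UMIs per cell, which left out 2 and 1 cells, it was 7.48% (3.28–14.2) and 17.3% (8.23–30.3). In KO T cell-like cells, which should lack the gene, it was 5.41% before and 0.69% after thinning. Both dendritic sub-clusters were higher in DKO, at 108 CPM in KO and 267 in DKO for Cd209a cells, and 48.6 and 163 CPM for the cells marked by Il12b and Fscn1. The class also differed in other ways between the libraries: its median depth was 8084 UMIs in KO and 9899 in DKO, its 15 dendritic cell markers summed to 2319 and 3583 CPM with none at 0, and its 12 macrophage markers to 854 and 656 CPM. The part of these in the Csf2ra difference was not tested. Csf2ra was higher in DKO elsewhere too. The low-UMI cluster rose from 99.5 to 233 CPM (log2 ratio 1.25, 0.44–1.97), with 53 and 22 UMIs. Retnla Mrc1 macrophage-like cells rose from 122 to 186 CPM (0.61, 0.15–1.07), and all kept cells from 130 to 154 (0.25, 0.11–0.39). The intervals of monocyte-like and neutrophil-like cells held 0, and all lymphoid-like cells fell (-2.19, -5.61 to -0.47). Whether the rise was particular to dendritic cell-like cells was not tested.

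**Figure D3:**
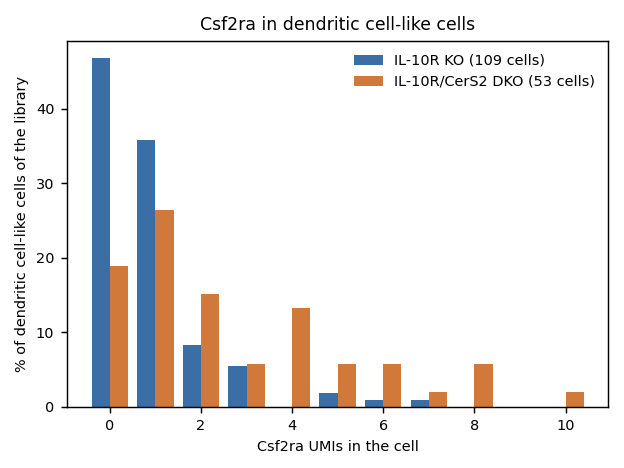
Share of dendritic cell-like cells, in percent, by the number of Csf2ra UMIs in a cell, for the KO and DKO libraries. Cells with 0 UMIs make up 46.8% of KO and 18.9% of DKO cells, and the DKO cells extend to 10 UMIs against 7 in KO.

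In macrophage-like cells no member passed 2-fold, beside 6.89% of 8970 genes, and 4 of the 6 members measured had an interval that left out 0, beside 21.3% of those genes. Csf2rb2 had the lowest ratio, -0.57 (-0.86 to -0.30), from 156 CPM in KO and 105 in DKO. Csf1r and Csf2rb were each at -0.28 (-0.44 to -0.13), with Csf2rb at 401 CPM in KO and 330 in DKO. Csf2ra, at 0.31 (0.09–0.52), was the only 1 whose interval lay above 0, and Csf3r was at 0.00 (-0.53–0.48). The median was -0.28 over the 6 members and 0.10 over all genes measured.

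The mix of macrophage-like cells differed between the libraries, and Csf2rb2 and Csf2rb differed between the sub-clusters. At the finer clustering, the largest of them, led by Cfb and Spint1, held 444 KO cells but 62 DKO cells, and its Csf2rb2 level was 190 CPM in KO and 181 in DKO. The Apoe Ms4a7 cells were at 149 and 91.6 CPM and the Retnla Mrc1 cells at 74.6 and 45.4 CPM. In KO, Csf2rb was at 459 CPM in the Cfb Spint1, 414 in the Apoe Ms4a7 and 252 in the Retnla Mrc1 cells. In that order, its log2 ratios of DKO over KO were -0.05 (-0.28–0.17), -0.37 (-0.73 to -0.04) and -0.09 (-0.46–0.27). Those of Csf1r were -0.15 (-0.40–0.08), -0.52 (-0.84 to -0.22) and -0.22 (-0.54–0.09). A weighting by KO shares used the coarser macrophage-like clusters of resolution 0.3 (596 and 205 KO cells, 106 and 99 DKO cells), not these sub-clusters. It gave log2 ratios of -0.31 for Csf2rb2, -0.13 for Csf2rb, -0.22 for Csf1r and 0.34 for Csf2ra. The mix of the finer sub-clusters was not adjusted for. With library totals rescaled by the trimmed mean of M-values, ratios in macrophage-like cells moved by -0.14 and those in neutrophil-like cells by -0.11, which left the direction of Csf1r, Csf2ra, Csf2rb and Csf2rb2 in macrophage-like cells as it was. The lower limit of the Csf2ra interval in macrophage-like cells, 0.09, was smaller than that shift, so after rescaling the interval would hold 0. That rescaling did change the split over all genes past 2-fold, from 375 higher and 243 lower in DKO (60.7% higher) to 275 and 341 (44.6% higher).

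In monocyte-like cells none of the 5 members measured passed 2-fold, beside 8.90% of 7328 genes. Csf1r was at 0.02 (-0.22–0.24), Csf2ra at 0.15 (-0.18–0.45) and Csf2rb2 at -0.28 (-0.80–0.18). Csf2rb, at -0.26 (-0.52 to -0.01), was the only 1 of the 5 whose interval left out 0, as did 14.8% of all genes there. At the finer clustering, nonclassical monocyte-like cells numbered 44 in KO and 23 in DKO, and the Vcan Ly6c2 cells 414 and 82, so that the mix differed between the libraries. In the Vcan Ly6c2 cells the log2 ratio was -0.12 (-0.41–0.14) for Csf2rb and 0.00 (-0.56–0.50) for Csf2rb2. In a monocyte-like sub-cluster led by Ccnb1ip1 and Atf3, Csf2rb2 had 75 UMIs in KO but 4 from 23 DKO cells, a log2 ratio of -1.37 (-3.44 to -0.12).

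In neutrophil-like cells none of 6 members passed 2-fold, beside 16.0% of 1977 genes, 4.25% upward and 11.7% downward, and 2 had an interval that left out 0, beside 17.3% of those genes. Csf3r had a log2 ratio of -0.45 (-0.87 to -0.07), which was -0.09 when the class was set by a marker gate on each cell instead of by clusters. Csf1 had a log2 ratio of -0.85 (-1.71 to -0.14). Leaving out the cell with the most Csf1 UMIs in each library gave -1.23, and the marker gate gave -1.49, both past 2-fold, while the DKO value rests on 17 UMIs in 7 cells. Csf1r at 0.33 (-0.92–1.36), Csf2ra at 0.04 (-0.83–0.79) and Csf2rb at -0.21 (-0.84–0.35) had intervals that held 0.

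In all lymphoid-like cells, 4 members reached 20 UMIs, and 1 was past 2-fold upward and 3 downward, beside 2.45% and 5.98% of 7760 genes, 8.43% in all, and 18.9% of those genes had an interval that left out 0, as did the 3 downward members. The 1 upward was Csf2, with 13 UMIs in each library at 6.78 CPM (3.61–11.6) in KO and 14.6 (7.76–24.9) in DKO, for a log2 ratio of 1.11 (-0.12–2.33). The DKO value comes largely from 1 cell with 11 UMIs, and without the cell with the most Csf2 UMIs in each library the log2 ratio was -0.97. The 3 downward were receptors: Csf1r with 22 UMIs in KO and 0 in DKO, Csf2ra with 24 and 2, and Csf2rb with 26 and 1. Their levels were 11.5 to 13.6 CPM in KO, where T cell-like cells held 21 UMIs for Csf1r, 12 for Csf2ra and 11 for Csf2rb. The 12 macrophage markers summed to 168 CPM with 7 seen in KO and to 0 CPM with none seen in DKO in T cell-like cells, to 293 and 32.7 CPM with 6 and 4 seen in Xcl1 Nkg7 lymphocytes, and to 758 and 710 CPM with 5 and 1 seen in B cell-like cells. Their part in the result was not tested.

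Other genes of the pathway were described as 43 genes in 5 lists of ligands, other receptors, signalling proteins, induced and feedback genes, and lineage factors. In macrophage-like cells 36 could be measured, 5 past 2-fold upward and 1 downward, beside 4.18% and 2.71% of all genes, with a median log2 ratio of 0.09 against 0.10 over all genes. Kitl, the ligand of the receptor Kit, was at 5.51 CPM in KO and 32.8 in DKO, for a log2 ratio of 2.56 (1.83–3.33), and Irf4, a lineage factor, at 18.2 and 48.4 CPM, 1.42 (0.91–1.90). Flt3l, the ligand of FLT3, was at 2.45 and 6.56 CPM, with an interval that held 0 (-0.07–2.83). The other two past 2-fold were Il3ra, the alpha chain of the IL-3 receptor, at 15.3 and 35.3 CPM, 1.21 (0.63–1.76), and Cebpe, a granulocyte lineage factor, at 4.69 and 10.7 CPM, 1.21 (0.08–2.22). None of the 17 signalling genes passed 2-fold in either direction. Socs1, a feedback inhibitor of JAK kinases, fell from 78.2 to 34.4 CPM, a log2 ratio of -1.17 (-1.68 to -0.72).

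In monocyte-like cells 30 of the 43 could be measured, 0 past 2-fold upward and 3 downward, beside 3.19% and 5.70% of all genes. Socs1 was the lowest there too, at 153 CPM in KO and 31.6 in DKO, for a log2 ratio of -2.23 (-3.07 to -1.58). Irf8, a factor of the monocyte and dendritic lineages, was at 285 and 136 CPM, -1.06 (-1.44 to -0.72). Stat5a, a transducer of GM-CSF signals, was at 13.5 and 5.58 CPM from 35 and 3 UMIs, with an interval that held 0 (-3.62–0.39).

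In dendritic cell-like cells, where Csf2ra rose, 0 of 31 measured pathway genes were past 2-fold upward and 3 downward, beside 4.21% and 6.18% of all genes. Among these were Cish, a STAT5-induced inhibitor of cytokine receptors, at 44.1 CPM in KO and 12.5 in DKO (log2 ratio -1.73, -3.21 to -0.65), and Inpp5d, which encodes the phosphatase SHIP1, at 85.1 and 37.5 CPM (-1.15, -1.95 to -0.48). In neutrophil-like cells, 1 of 15 rose, Dusp6, an inhibitor of ERK kinases, at 111 and 261 CPM (1.25, 0.39–2.06), and 1 was past 2-fold downward, Cbl, from 23 and 2 UMIs with an interval that held 0 (-4.83–0.32), beside 4.25% and 11.7% of all genes. In all lymphoid-like cells 0 of 32 were past 2-fold upward and 2 downward, among them Tyk2 at 15.6 and 6.73 CPM (-1.13, -2.77–0.07), beside 2.45% and 5.98% of all genes. The genes of these 3 classes were named after their values were seen.

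The other ligands were sparse. Csf3, which encodes granulocyte colony-stimulating factor, had 37 UMIs at 30.8 CPM in the KO Arg1 Nos2 cluster, against 4 UMIs in KO and 9 in DKO macrophage-like cells. No UMI of Il34, the second ligand of the receptor encoded by Csf1r, or of Il3 was found in any class. Flt3l was found in T cell-like cells at 14.9 CPM in KO and 12.9 in DKO, and in Xcl1 Nkg7 lymphocytes at 11 and 7.27 CPM. All lymphoid-like cells together held 19 Flt3l UMIs in KO and 6 in DKO. Both DKO levels lay below the level that 3 UMIs would give, 19.4 CPM in T cell-like cells and 10.9 CPM in Xcl1 Nkg7 lymphocytes.

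The genes with the most similar distribution were found by Pearson's r of log2(CPM + 10) over 17 points, each 1 class in 1 library with at least 20 cells. These points share libraries and the clustering, so r is a description. Csf1r was most like Sirpa (0.98), Tgfbi (0.98) and Thbs1 (0.96), Csf2ra like Myadm (0.97), Plbd1 (0.95) and Lyz2 (0.94), and Csf2rb like Plbd1 (0.97), Il1b (0.96) and App (0.95). Csf3r was most like F630028O10Rik (0.96), Csf1 like S100a8 (0.96), and Flt3 like Il4i1 (0.91). Among the members, the highest values were 0.97 for Csf2ra with Csf2rb and 0.94 for Csf2rb with Csf2rb2.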

How the data were processed

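Gene counts were deposited as 1 matrix of UMI counts per library. The authors made these counts with Cell Ranger 6.0.1 on mm10 and analysed them with Seurat 4.3.0, per the submitters' processing notes. Here, the study's cell filter was applied (300 to 5000 genes, no more than 10% of UMIs mitochondrial), and joint clustering of the libraries used Seurat 5.3.0 (2000 variable genes without the 8 members, 30 components, 20 neighbours, resolution 0.3, and 0.8 for sub-clusters). Classes were named from marker lists without the members, and rebuilt names can differ from those of the study. Scrublet (scanpy 1.11.5) called 6 KO and 1 DKO doublets, too few to have worked, so no cell was removed and the 5% with the highest scores were left out in an alternative.

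UMIs were summed per class and library. Levels carry exact Poisson intervals, ratios exact conditional intervals (with 0.5 added to each sum for the point value) and shares of cells exact Clopper-Pearson intervals. With 1 library per genotype, no test was made. The ratio code was tested on simulated data. The genes named were the 8 members, the 3 genes most like each, and the 3 highest and 3 lowest pathway genes. Values of some listed genes are not reported here. The members and lists were chosen with earlier results of these data known. The Xcl1 Nkg7 cluster was kept among lymphoid cells, and Csf2ra in dendritic cell-like and Csf1 in neutrophil-like cells were added to the comparisons, after seeing the data.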

Additional observations from a re-analysis of the deposited data

How the results depend on the processing

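No paired analysis was possible because there was 1 library per genotype, and no replicate could be left out. Over 14 results and 125 alternatives, 118 stayed within the range set around the main value and 7 did not. For ratios this range was the counting interval of the main ratio. For the count of genes past 2-fold it was a fixed fold of the main count. A wide interval lets a large move count as within range. In neutrophil-like cells the alternatives ran from -1.49 to -0.80 for Csf1 and from -0.56 to -0.09 for Csf3r, all within range. With clusters at resolution 0.8, the log2 ratio of DKO over KO in macrophage-like cells was -0.49 for Csf1r and -0.88 for Csf2rb2, since the sub-cluster led by Cfb and Spint1 then had no class name. The KO ratio of macrophage-like over monocyte-like cells for Csf1r was 0.59 there, and 0.45 with that sub-cluster kept, an alternative chosen after seeing the data. The Csf2 ratio in lymphoid-like cells changed sign, from 1.11 to -0.97, without the cell with the most UMIs in each library. Genes past 2-fold in macrophage-like cells numbered 618, but 2616 with no minimum of UMIs and 109 with at least 100. Csf2ra in dendritic cell-like cells stayed between 1.23 and 1.52, and Csf2ra in macrophage-like cells between 0.17 and 0.38.

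Csf1 in all lymphoid-like cells, with 5 UMIs in KO and 0 in DKO, was under the 20 UMIs set for a ratio, and Csf2 rests on 13 UMIs in each library. Median-of-ratios size factors moved macrophage-like ratios by -0.13, with 277 genes past 2-fold higher and 338 lower in DKO.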

Other observations

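Among other receptors of these cytokine families, Kit, the stem cell factor receptor, was at 127 CPM in KO and 98.3 CPM in DKO dendritic cell-like cells and at 140 and 236 CPM in Xcl1 Nkg7 lymphocytes. Il5ra, the alpha chain of the IL-5 receptor, was found in B cell-like cells with 12 UMIs in KO and 8 in DKO, at 17.8 and 17.3 CPM, where Csf2rb, the chain it signals with, was at 8.88 and 2.16 CPM. Il5, its ligand, had 1 UMI over all classes.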
